A study of Mus musculus with 2 samples.

Results

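Collagen genes were examined for trimethylation of lysine 27 on histone H3 (H3K27me3) in mouse rib chondrocytes. They were taken by symbol, as Col followed by a number, the letter a and a chain number. The annotation that the authors deposited with their peaks, which are regions where H3K27me3 ChIP exceeded input, joined 40 peaks to 15 such genes, out of 4987 gene symbols and 19359 peaks in all. The other 29 of the 44 mouse collagen genes in the RefSeq gene table had no peak within 5 kb and are called unmarked. The chondrocytes came from rib cartilage of newborn CD1 mice of wild-type genotype, were freed with collagenase and were untreated apart from a night in medium with serum. The labels give neither the number of mice nor a purification of the cells after straining. There was 1 ChIP library, with 17237574 tags after filtering, and 1 input library with 17004082, and the antibody tags in the labels are exchanged between them relative to their titles, which were followed here. No value below therefore has a replicate error, no test between conditions was possible, and intervals on shares cover counting error only.

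Collagens are trimeric proteins of the extracellular matrix whose chains wind into a triple helix, and their genes fall into classes by the assemblies they build. Fibril-forming chains give tensile strength, and in cartilage the fibrils hold type II collagen with type XI inside and type IX on the surface, while type X marks hypertrophic cartilage and type XXVII is a cartilage fibril collagen. Type IV chains form the network of basement membranes, FACIT chains attach to fibrils, type VI chains build beaded microfibrils, and transmembrane collagens span the plasma membrane of epithelial, muscle and neural cells. H3K27me3 is deposited by Polycomb repressive complex 2 (PRC2) and is found at genes kept silent, often over CG-rich gene starts.

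None of the 8 cartilage collagens carried a peak, whereas 3 of 4 transmembrane collagens did. The interval of the cartilage share (upper limit 32.4%) includes the 20.7% of all protein-coding genes. That of the transmembrane share (30.1 to 95.4%) lies above 20.7% and includes the 34.0% of protein-coding genes of 100 kb or more. Of all 44 collagens, 15 had a peak within 5 kb (34.1%, 95% Wilson interval 21.9 to 48.9%), beside 20.7% of 21900 protein-coding genes in RefSeq. A peak overlapped the body of 14 collagen genes (31.8%, 20 to 46.6%), beside 14.2% of protein-coding genes. Only 3 had a peak over the 5′ end (6.82%, 2.35 to 18.2%), beside 4.45%. Counting only peaks whose averaged q-value did not exceed 0.05, 11 collagens were marked (25%, 14.6 to 39.4%), beside 16.4% of protein-coding genes, and with a limit of 0.01 the count was 3 (6.82%, 2.35 to 18.2%), beside 5.90%. The interval for collagens thus lay just above the share of all genes for peaks within 5 kb and over the body, and it included that share for gene starts and under both limits on the q-value.

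Collagen genes are long, with a median of 114 kb against 17.1 kb for protein-coding genes, and long genes offer more room for a peak. Of the 26 collagens of 100 kb or more, 14 were marked (53.8%, 35.5 to 71.2%), beside 34.0% of all protein-coding genes of that length. In genes of 30 to 100 kb it was 0 of 9 collagens (upper limit 29.9%), beside 22.3%, and in genes under 30 kb 1 of 9 (11.1%, 1.99 to 43.5%), beside 17.9%. The single short marked gene was Col1a1. Measured per base, as the covered share of the gene body, collagens stood below or level with other genes. Peaks covered 1.01% of 5440 kb of collagen gene bodies and 1.74% of all protein-coding gene bodies. In genes of 100 kb or more these shares were 1.11% and 1.10%.

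The classes differed most at their extremes. The transmembrane share was 75% (3 of 4, interval 30.1 to 95.4%) and the cartilage share 0 of 8 (upper limit 32.4%), and these intervals overlap narrowly. Between them lay fibrillar collagens outside cartilage with 2 of 7 (28.6%, 8.22 to 64.1%), basement membrane type IV collagens with 2 of 6 (33.3%, 9.68 to 70.0%) and FACIT collagens outside cartilage with 2 of 6 (33.3%). Type VI beaded filament collagens had 3 of 6 (50%, 18.8 to 81.2%). Of the collagens of the basement membrane zone 1 of 3 was marked, of the network-forming collagens outside cartilage 1 of 2, and of the remaining pair (Col26a1 and Col28a1) 1. With averaged q-values limited to 0.05, the transmembrane share was 50% (2 of 4), level with type VI, which kept its 3 of 6. The transmembrane gene lost was Col23a1, whose only peak had a q-value of 0.0988. The cartilage class also had the shortest genes, with a median of 28.4 kb against 218 kb for transmembrane, 138 kb for basement membrane and 45.1 kb for fibrillar collagens, so class and length cannot be told apart here. By covered share of the gene body the order was 2.44% in transmembrane, 2.25% in network-forming, 1.89% in beaded filament, 1.10% in basement membrane, 0.743% in fibrillar, 0.431% in basement membrane zone, 0.268% in FACIT and 0% in cartilage collagens. The remaining pair also stood at 0%.

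**Figure D1:**
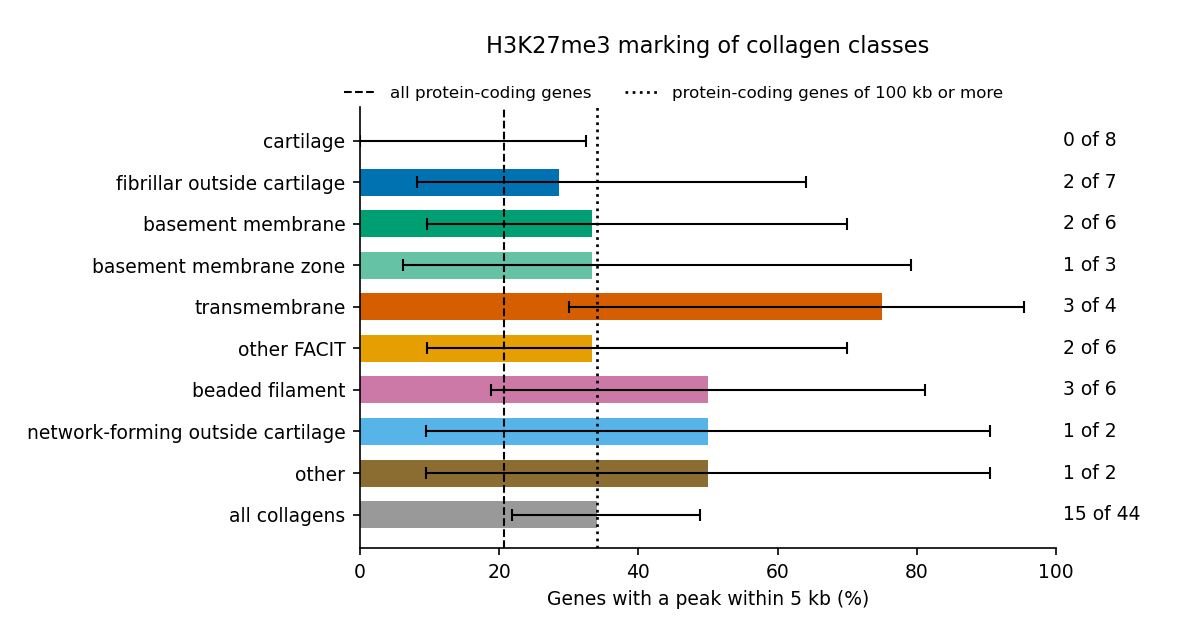
Share of genes with an H3K27me3 peak within 5 kb (x axis, percent) for each collagen class (y axis), with 95% Wilson intervals as black bars and the counts at the right. Dashed and dotted lines give all protein-coding genes (20.7%) and those of 100 kb or more (34.0%). Cartilage collagens stand at 0 of 8 and transmembrane collagens at 3 of 4.

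The gene starts under a peak are shown first, because the mark is usually studied there. The promoter windows below run from 250 bases before to 50 bases after the start used by the RefSeq promoter table, are written 5′ to 3′ on the gene's own strand (GRCm38.p6), and have every CG pair in capitals. In Col13a1, Col6a6, Col6a4 and Col11a2 that start lies inside the RefSeq gene record and not at its end. This motif, the letters CG, reads the same on both strands. Col13a1 (chr10:61979059-61979358, minus strand) encodes a transmembrane collagen, Col18a1 (chr10:77166481-77166780, minus strand) the source of endostatin, and Col6a6 (chr9:105828036-105828335, minus strand) a type VI chain, and all 300 bases of each lay under a peak. In Col6a4 (chr9:106096642-106096941, minus strand), the first 53 bases did. Col10a1 (chr10:34389731-34390030, plus strand) and Col11a2 (chr17:34038888-34039187, plus strand) are cartilage collagens with no peak, printed for contrast. The Col11a2 window stands in for Col2a1 and, like that of Col6a4, was chosen after the values were seen.
Col13a1: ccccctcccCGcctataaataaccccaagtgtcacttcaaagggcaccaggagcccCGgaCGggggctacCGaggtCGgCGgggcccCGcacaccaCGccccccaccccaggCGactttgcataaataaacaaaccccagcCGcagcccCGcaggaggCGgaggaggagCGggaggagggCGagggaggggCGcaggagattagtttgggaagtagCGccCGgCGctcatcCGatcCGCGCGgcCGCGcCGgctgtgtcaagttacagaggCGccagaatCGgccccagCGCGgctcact
Col18a1: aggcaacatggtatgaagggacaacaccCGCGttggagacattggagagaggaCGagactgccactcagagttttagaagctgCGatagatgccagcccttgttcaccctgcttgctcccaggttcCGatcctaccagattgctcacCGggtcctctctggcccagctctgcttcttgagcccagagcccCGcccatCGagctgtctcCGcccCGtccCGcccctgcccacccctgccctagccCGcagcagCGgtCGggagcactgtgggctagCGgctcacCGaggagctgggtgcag
Col6a6: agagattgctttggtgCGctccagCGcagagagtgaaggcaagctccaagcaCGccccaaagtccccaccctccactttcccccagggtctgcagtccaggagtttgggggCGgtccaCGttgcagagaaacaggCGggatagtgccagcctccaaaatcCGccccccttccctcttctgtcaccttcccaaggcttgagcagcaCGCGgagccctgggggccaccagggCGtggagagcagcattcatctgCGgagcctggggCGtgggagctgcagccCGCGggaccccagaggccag
Col6a4: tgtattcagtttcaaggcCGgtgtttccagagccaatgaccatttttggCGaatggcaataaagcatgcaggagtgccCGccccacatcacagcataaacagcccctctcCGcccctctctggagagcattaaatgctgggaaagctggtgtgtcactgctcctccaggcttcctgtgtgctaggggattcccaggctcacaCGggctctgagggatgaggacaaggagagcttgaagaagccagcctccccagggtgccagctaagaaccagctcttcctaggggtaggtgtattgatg
Col10a1: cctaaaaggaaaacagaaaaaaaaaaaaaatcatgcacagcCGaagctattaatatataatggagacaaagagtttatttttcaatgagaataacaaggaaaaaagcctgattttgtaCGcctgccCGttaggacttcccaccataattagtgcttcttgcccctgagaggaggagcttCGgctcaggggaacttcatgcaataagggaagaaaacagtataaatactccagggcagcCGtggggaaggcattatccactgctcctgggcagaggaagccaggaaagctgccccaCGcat
Col11a2: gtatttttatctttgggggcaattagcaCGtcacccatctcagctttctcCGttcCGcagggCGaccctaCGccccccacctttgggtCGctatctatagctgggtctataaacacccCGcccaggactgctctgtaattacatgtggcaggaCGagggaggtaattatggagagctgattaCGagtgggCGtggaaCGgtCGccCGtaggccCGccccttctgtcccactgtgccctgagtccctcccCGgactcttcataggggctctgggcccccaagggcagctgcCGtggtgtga

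The Col13a1 window held 29 CG pairs, Col18a1 16, Col6a6 14 and Col6a4 5, whereas Col10a1 held 6 and Col11a2 16. CG pairs alone did not separate marked from unmarked collagens. Across the 35 collagens with a promoter sequence, taking the richest window of each gene, the median was 14 pairs in the 11 with a peak within 5 kb (range 3 to 29) and 11.5 in the 24 without (range 0 to 37), and all protein-coding genes had a median of 15. The 4 transmembrane collagens had a median of 23.5, with 29 pairs in Col13a1, 24 in Col23a1, 23 in Col25a1 and 5 in the unmarked Col17a1. The 6 cartilage collagens with a sequence had a median of 9.5 and reached 18 in Col27a1. The richest windows of the family, 37 pairs in Col4a1, 34 in Col5a1, 33 in Col4a2 and 32 in Col8a2, all belonged to genes with no peak within 5 kb. Windows with at least 29 pairs made up 17.2% of all protein-coding promoter windows, and those with at least 37 made up 7.29%. Col1a1, Col2a1, Col4a3, Col5a2, Col9a3, Col12a1, Col14a1, Col22a1 and Col26a1 have no window here.

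**Figure D2:**
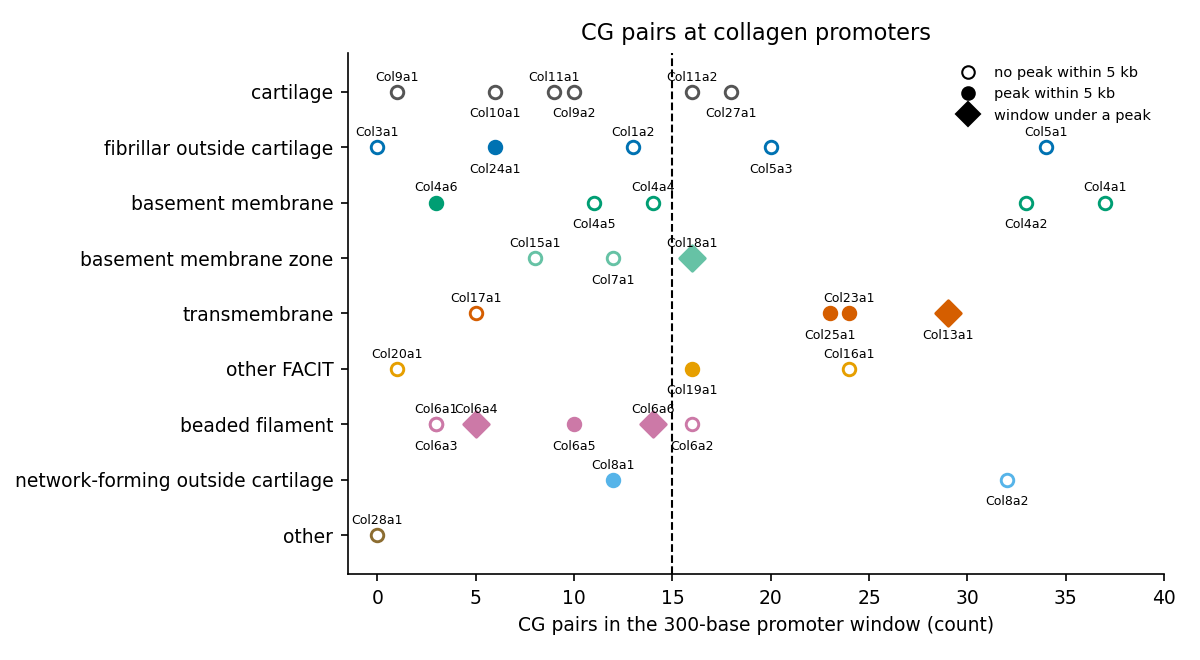
Number of CG pairs in the 300-base promoter window (x axis, richest window of each gene) by collagen class (y axis). Open circles are genes with no peak within 5 kb, filled circles genes with one, diamonds genes whose window lay at least partly under a peak, and the dashed line is the median of all protein-coding genes (15). Filled symbols stop at 29 pairs, while open circles reach 37.

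Among transmembrane collagens the marked genes differed in where the mark lay. Col13a1 had a peak of 5.22 kb over its start (chr10:61975752-61980971), from 1.86 kb upstream to 3.36 kb inside, at 3.39-fold over input with a q-value of 0.0143. This was the strongest peak over any collagen start. Smaller peaks of 0.294 and 1.34 kb lay 48.0 and 41.1 kb inside the gene, with fold enrichments of 3.30 and 3.08.

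Col25a1, which encodes the collagen that binds amyloid in the brain, had the largest summed peak length of the family, 15.4 kb in 5 peaks. All 5 stood in a stretch of 27.8 kb in the middle of the gene (chr3:130399124-130426936), between 52.1% and 58.7% of its length, and filled 55.4% of it. Their widths were 4.12, 0.947, 0.294, 7.88 and 2.15 kb from the 5′ side, and their fold enrichments 3.30, 3.71, 3.63, 3.16 and 3.07. The value of 3.71, with a q-value of 0.00429, was the highest at any collagen, and the peak of 7.88 kb was the widest. The RefSeq start of Col25a1, a gene with 23 CG pairs in its window, lay 88.4 kb from the nearest peak, which was not one of these 5. Col23a1 had a single peak of 1.49 kb at 72.3% of its length, with the lowest pileup of the whole list (9.86 fragments), 2.96-fold enrichment and a q-value of 0.0988. Col17a1, a collagen of epidermal hemidesmosomes and at 45.7 kb the shortest gene of the class, was unmarked, with the nearest peak 149 kb away.

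Of the fibrillar collagens outside cartilage, Col1a1 and Col24a1 were marked. Col1a1 encodes the main chain of type I collagen of bone, skin and tendon. A peak of 6.19 kb stopped 369 bp short of its start (chr11:94929670-94935856) and another of 1.75 kb began 1.20 kb inside (chr11:94937422-94939170). Their fold enrichments were 3.57 and 3.52 and their q-values 0.00577 and 0.0109. The mark thus flanked the start on both sides and left a gap of 1565 bp around it. The partner chain Col1a2 had no peak within 5 kb, and the nearest, of 1.43 kb with a fold enrichment of 3.12, lay 17.2 kb upstream. The fibroblast and bone chains Col3a1 and Col5a2, which are neighbours, had no peak within 1250 kb. Col5a1 lay 143 kb and Col5a3 19.9 kb from the nearest.

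Col24a1, a fibrillar collagen of developing bone and cornea, carried its mark mainly at the other end of the gene. A peak of 3.29 kb (chr3:145547577-145550861) lay just before the 3′ end and one of 3.69 kb (chr3:145553875-145557559) lay 1.86 kb after it, with fold enrichments of 3.20 and 2.99. A peak of 475 bp (chr3:145290092-145290566) lay 1.91 kb upstream of the start, with a fold enrichment of 3.05. Only the first of these 3 peaks had a q-value under 0.05 (0.0260).

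Type IV genes lie in head-to-head pairs that share a start region, and none of the 3 pairs had a peak near it. The nearest peak lay 168 kb from the starts of Col4a1 and Col4a2, the chains of all basement membranes. It lay 59.2 kb from the start of Col4a4 and 59.3 kb from that of Col4a3. From the starts of Col4a6 and Col4a5 it lay 170 and 171 kb. Col4a1 and Col4a2 together span 251 kb and held no peak. Measured from the gene and not its start, the nearest peak lay 31.2 kb from Col4a2, 168 kb from Col4a1, 59.2 kb from Col4a4 and 23.5 kb from Col4a5. The chains of specialised basement membranes, as in kidney, eye and cochlea, differed within each pair. Col4a3 had 3 peaks and its partner Col4a4 none, while Col4a6 had 4 and its partner Col4a5 none.

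In Col4a3 the mark was concentrated at the 3′ end, where a peak of 3.19 kb (chr1:82716294-82719486, fold enrichment 3.13) was followed by one of 3.11 kb over the end of the gene (chr1:82721126-82724238, 3.22). The same peaks lay within the long non-coding RNA gene C430014B12Rik, and the second ended 652 bp before Mff, so they cannot be assigned to one gene. The third peak, of 1.07 kb, lay 59.3 kb inside, with a q-value of 0.0826. Col4a6 had peaks of 1.90, 1.03, 2.35 and 1.06 kb within 21.5 kb of its middle (chrX:141282606-141304140), between 55.1% and 62.0% of its length. Their fold enrichments were 3.35, 3.13, 3.25 and 3.05 from the 5′ side. They are 4 of only 138 peaks on the X chromosome, where the list held 0.0809 peaks per 100 kb against 0.736 over the genome.

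At the basement membrane zone, Col18a1 had 1 peak of 2.52 kb over its start (chr10:77165448-77167964), at 2.99-fold over input with a q-value of 0.0616. The other promoter window of Col18a1 lay 51493 bp from this peak and had none of its own. Col15a1, the other collagen of this type, was the nearest to the limit among unmarked genes, with a peak of 1.61 kb 5.81 kb upstream of its start. Col7a1, which forms the anchoring fibrils of skin, lay 118 kb from the nearest.

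The type VI family was divided by locus and also by gene length, and these cannot be told apart here. Col6a1, Col6a2 and Col6a3 span 17.3, 27.9 and 77.1 kb in RefSeq, and Col6a4, Col6a5 and Col6a6 span 107, 106 and 139 kb. Col6a1, Col6a2 and Col6a3, the chains found in most connective tissue, had no peak, and the nearest lay 439, 403 and 167 kb away. Col6a4, Col6a5 and Col6a6, which lie in tandem on chromosome 9 and can take the place of the chain of Col6a3, were all marked. Their locus of 407 kb (chr9:105689417-106096828) held 12 peaks of 20.8 kb in all, or 2.95 per 100 kb, and the locus of Col6a2 and Col6a1 held 0 in 130 kb. In this tandem locus each start had a peak near it. The peak of Col6a6 (1.03 kb, chr9:105827496-105828526) covered the start, at 3.02-fold over input with a q-value of 0.0597. The peak of Col6a4 (513 bp) ended 106 bp upstream, with 3.14 and 0.0429. That of Col6a5 (1.80 kb) lay 2.63 kb upstream of the deposited start and 811 bp upstream of the RefSeq start, with 3.44 and 0.0151. The highest fold enrichment of the locus was thus at Col6a5. Between Col6a5 and Col6a4 stood a peak of 7.93 kb (chr9:105974923-105982849, 3.31) that the annotation joined to no gene. It was wider than any peak joined to these genes, the widest of which was 3.14 kb. Also joined to no gene were a peak of 0.313 kb between the same genes (3.39, q-value 0.0194) and one of 0.771 kb between Col6a6 and Col6a5 (3.01). The peak upstream of Col6a4 lies just outside this locus and is not among the 12. Inside the 3 genes were 6 further peaks of 0.327 to 3.14 kb and fold enrichments of 2.98 to 3.16, and one of 748 bp stood 1.87 kb upstream of Col6a6. As neighbours, these genes are not independent members of their class.

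Of the FACIT collagens outside cartilage, Col19a1 and Col22a1 were marked. Col19a1, a collagen of muscle and brain, had a peak of 353 bp 3.39 kb inside its start, with a q-value of 0.0988. Col22a1, a collagen of tissue junctions, had peaks of 768 and 636 bp, with fold enrichments of 3.39 and 2.96 and q-values of 0.0189 and 0.0851, at 66.7% and 52.8% of the deposited gene. The RefSeq record of Col22a1 reaches further upstream (355 kb against 238 kb) and holds one more peak of 1.21 kb (2.96). Col12a1, Col14a1, Col16a1 and Col20a1 were unmarked, at 78.4, 388, 38.3 and 18.2 kb from a peak.

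Of the network-forming chains outside cartilage, Col8a1 had 4 peaks of 0.918 to 1.85 kb, none with a q-value under 0.05 (lowest 0.0567). They lay 2.29 kb inside the start, in the middle of the gene, at its 3′ end and 4.19 kb beyond it. Its partner chain Col8a2, with a CG-rich start, is shorter (27.5 kb against 130 kb) and lay 170 kb from the nearest. Col26a1, a collagen known from testis and ovary, had no peak over its body. One of 3.73 kb stopped 197 bp upstream of its start (chr5:136883406-136887140), at 3.59-fold over input with a q-value of 0.00438. With RefSeq's start this distance was 30 bp. Col28a1 was unmarked, at 300358 bp.

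**Figure D3:**
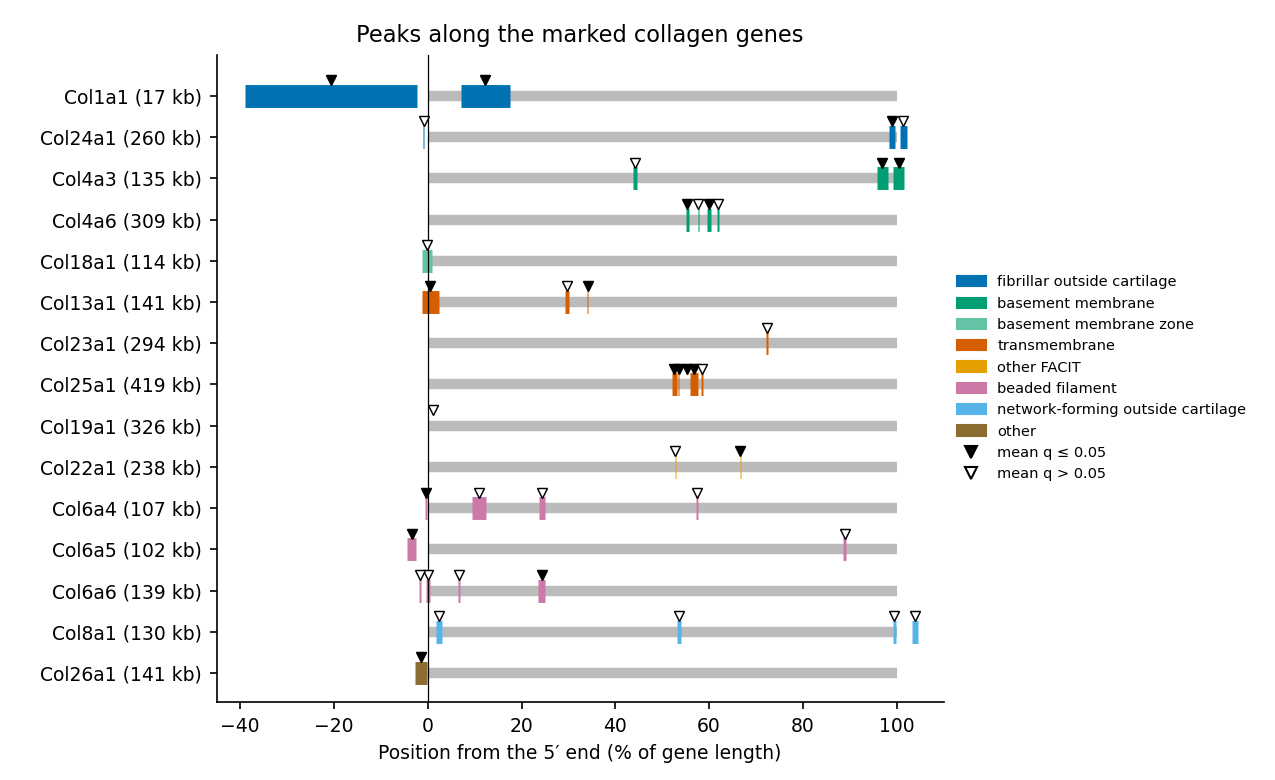
Position of the 40 peaks along the 15 marked collagen genes, as percent of the deposited gene length from the 5′ end (x axis), with the gene as a grey bar and its length in brackets. Coloured blocks are peaks drawn to scale by class, and triangles mark their centres, filled where the averaged q-value did not exceed 0.05. Peaks cover the start only in Col18a1, Col13a1 and Col6a6, and those of Col25a1 and Col4a6 crowd in mid-gene.

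Across the family, then, most peaks lay inside genes and away from their starts, as they did in other genes. Of the 40 peaks, 28 lay inside (70.0%, 54.6 to 81.9%), 6 upstream, 3 over the start, 2 downstream and 1 over the 3′ end. The share over the start was 7.5% (2.58 to 19.9%). In other genes of 100 kb or more, 81.6% lay inside and 3.36% over the start. In other genes of any length these shares were 53.3% and 9.53%. Of the 28 inside peaks, 10 had their centre before the midpoint of the gene (35.7%, 20.7 to 54.2%). The share was 59.7% (57.8 to 61.5%) in other genes of 100 kb or more and 60.7% in other genes of any length. In the first 10% of the gene lay 3 (10.7%, 3.71 to 27.2%), beside 24.2% and 19.9%. The collagen peaks were not limited by gene length and include 1 inside Col1a1, a gene of 16.8 kb. The inside peaks come from 13 genes, and 9 of the 28 belong to Col25a1 and Col4a6, so these shares rest on few genes.

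Peaks at collagens were of usual width and near the usual fold enrichment of the list, but fewer of them reached an averaged q-value of 0.05. Their median width was 1.46 kb (quartiles 0.763 and 2.67 kb) against 1.41 kb for the 10198 peaks at other genes with a symbol. None reached 10 kb, beside 5.14% of peaks at other genes, and the widest was the 7.88 kb peak of Col25a1. Their median fold enrichment was 3.11 (quartiles 3.02 and 3.30) against 3.18, and their median pileup 10.71 fragments against 11.16. An averaged q-value of 0.05 or less was reached by 18 of 40 (45%, 30.7 to 60.2%), beside 64.6% (63.7 to 65.6%) of peaks at other genes. One of 0.01 or less was reached by 4 (10.0%, 3.96 to 23.1%), beside 13.7%, and these stood at Col25a1 (2), Col1a1 and Col26a1. In Col18a1, Col19a1, Col23a1 and Col8a1 no peak had a q-value under 0.05. The 40 peaks come from 15 genes, with 5 from Col25a1 alone. These intervals count peaks as independent and may be too narrow.

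**Figure D4:**
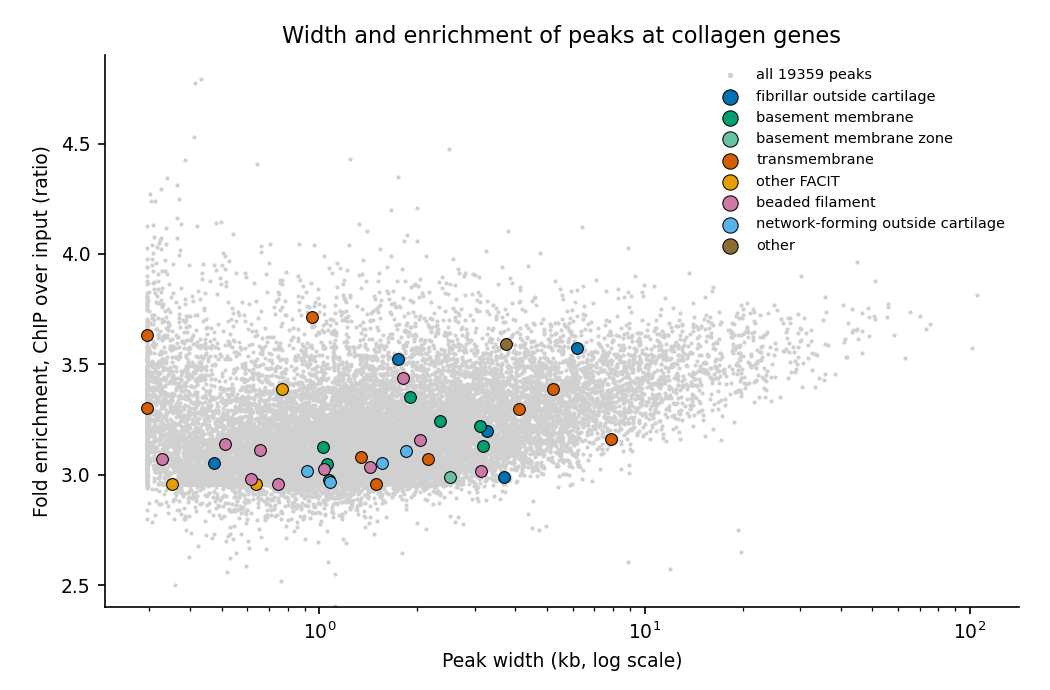
Width (x axis, kb, log scale) and fold enrichment of ChIP over input (y axis, ratio) of all 19359 peaks in grey and of the 40 peaks at collagen genes in the colours of their class. A further 22 grey peaks lie below the axis. Collagen peaks stay under 10 kb, between 2.96-fold and 3.71-fold.

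The 29 unmarked collagens ranged from 5.81 kb to 1500 kb in distance to a peak. The median was 131 kb, and 16 of them lay over 100 kb away. For the cartilage class the median was 96.2 kb. Type X collagen (Col10a1) lay 1500 kb from any peak, the largest distance of the family. Type II (Col2a1) lay 159 kb away, Col9a1 61.4 kb, Col9a2 131 kb, Col11a1 36.8 kb, Col11a2 31.2 kb and Col27a1 162 kb. Col9a3, at 15.5 kb, was the nearest, and that peak of 3.74 kb (3.16-fold) was joined to Tcfl5. No region with a pileup under 9.86 fragments was in the list, so a weaker mark at these genes was not detectable in this list.

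**Figure D5:**
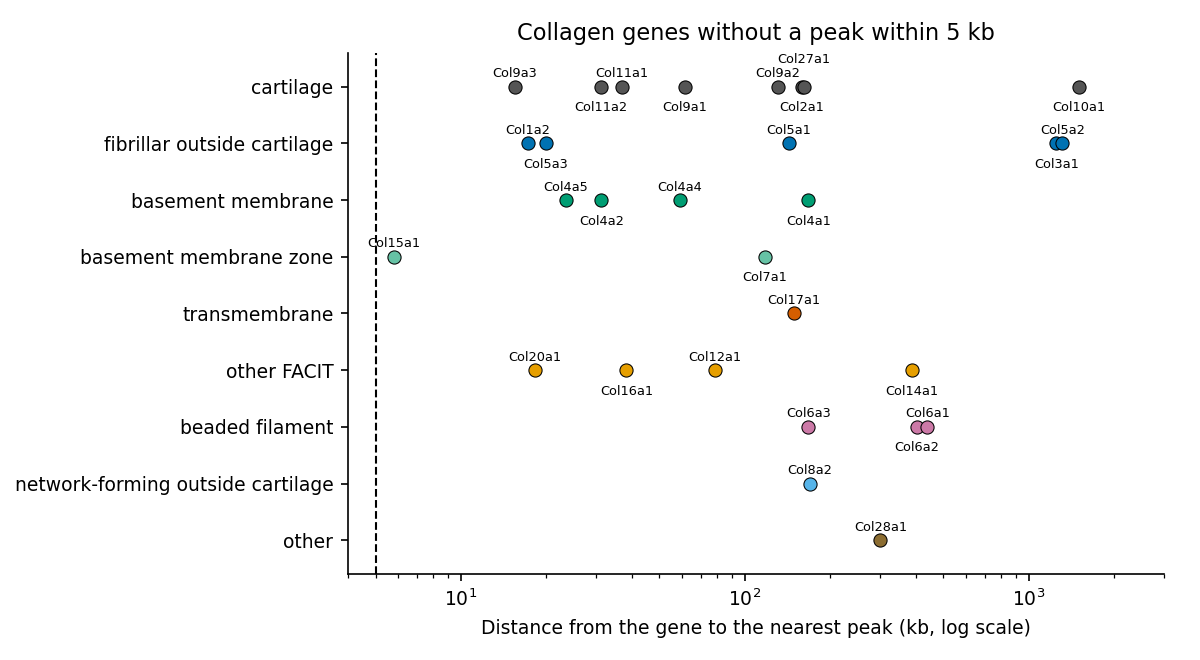
Distance from each of the 29 unmarked collagen genes to the nearest peak (x axis, kb, log scale) by class (y axis), with the 5 kb limit as a dashed line. Cartilage collagens range from Col9a3 at 15.5 kb to Col10a1 at 1500 kb.

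Genes that make, bind or accompany collagen were read in the same way. Of 29 genes for collagen processing, which hydroxylate, fold, cleave and cross-link the chains, 2 were marked (6.9%, 1.91 to 22.0%), beside 20.7% of all protein-coding genes. They were Adamts2, a procollagen N-proteinase with 1 peak of 2.53 kb (fold enrichment 2.81), and Tll2, a tolloid-like protease with 20 peaks of 28.2 kb in all. Of 10 collagen receptor genes 2 were marked (20%, 5.67 to 51%), the integrin subunits Itga2 (1 peak of 1.52 kb, 3.10) and Itga11 (2 peaks of 0.961 kb in all, 3.13), each without a q-value under 0.05. Of 15 genes for laminins and other basement membrane proteins 6 were marked (40%, 19.8 to 64.3%), each a laminin chain with a q-value under 0.05. Among them, Lamc3 had 8.92 kb of peaks with a highest fold enrichment of 3.52, and Lama1 had 6.99 kb with 3.63. The intervals of all 3 lists include the 20.7% of protein-coding genes. In none of these 54 genes did a peak cover the start, beside 4.45%.

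The chondrocyte label was compared with marker genes. None of 8 chondrocyte markers (Sox9, Acan, Matn1, Matn3, Hapln1, Comp, Chad and Cnmd) was marked (upper limit 32.4%), beside 20.7% of protein-coding genes, which that interval includes. Of 6 markers each, 4 were marked for skeletal muscle, 5 for blood, 3 for epidermis, 3 for fibroblasts and 2 for endothelium. The intervals for muscle (30 to 90.3%) and blood (43.6 to 97%) lay above 20.7%, and those for epidermis and fibroblasts (18.8 to 81.2% each) and endothelium (9.68 to 70%) included it. A peak over the start was present in 1, 1, 1, 2 and 2 of these genes, beside 4.45% of protein-coding genes. A peak list does not measure expression, so the share of other cells in the culture was not tested.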

How the data were processed

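The data were 1 H3K27me3 ChIP library and 1 input library of primary rib chondrocytes, grouped by their titles. The authors trimmed and aligned the reads, removed duplicates and ran MACS 2.1.0.20140616 in broad mode, ChIP against input, with a q-value cutoff of 0.05 in the file header. The header names no separate limit for broad regions, and averaged q-values at collagens reached 0.0988, so the list was not bounded at 0.05. The submitters' processing notes name Bowtie2, CASAVA 1.8.4 and mm10. The authors deposited per peak a pileup (a coverage signal, scaled to the smaller library), a fold enrichment (a ratio with 1 added to both sides) and −log10 q-values, averaged over the peak (the −log10 p-values beside them were not used here). A second deposited table joins peaks to gene records within 5 kb. No authors' comparison between conditions was present.

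Of 4987 deposited gene symbols, 4929 were matched to the RefSeq table of GRCm38.p6, by symbol or an unambiguous synonym. Unless named as RefSeq's, distances to marked genes use the deposited records, and distances to unmarked genes use RefSeq. Of 4927 genes compared, the deposited start coordinate equalled RefSeq's for 45, lay 1 base after it for 1791 and differed by another amount for the rest. The 1-base shift stood at the lower coordinate, as at the 5′ end of Col1a1 (plus strand) and the 3′ end of Col18a1 (minus strand). Distances from the 2 sources are therefore not interchangeable. Position shares for other genes left out records over 2 times RefSeq's length. Promoter sequences came from RefSeq. The collagen genes and all lists were chosen with earlier results of these data known. All marked collagens are named, with coordinates for those with a peak over the start and the 3 largest summed lengths, and unmarked ones with their distance. Coordinates of further peaks and a substitute for the planned Col2a1 promoter were added after the values were seen. The values of 1 companion gene are not reported here. Alternatives changed the limits on q-value, fold enrichment and width, the overlap or distance that counted as marked, and the classes. Shares carry 95% Wilson intervals, and no p-value was computed, since each group held 1 library. Peak placement was tested on simulated data (pandas 2.3.3).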

Additional observations from a re-analysis of the deposited data

How the results depend on the processing

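The alternatives gave 77 recomputed values over 11 results, of which 30 moved and 47 did not. A count or length was taken as moved past 1.5 times, and a share or median outside the 95% interval of its reported value. For classes of 4 to 8 genes that interval is wide and takes in changes as large as from 28.6% to 57.1%. No paired analysis was possible because neither group had a second library. With averaged q-values limited to 0.05, 8 collagens had a peak over the body and 1 (Col13a1) over the start, the median width was 2.19 kb, the median fold enrichment 3.33 and the summed length 49.4 kb, against 78.5 kb. With a limit of 0.01, 3 collagens were marked (Col1a1, Col25a1 and Col26a1), 1 over the body and 0 over the start, and the medians were 2.34 kb and 3.61-fold over 11.2 kb of peaks. The transmembrane share was then 25%, the fibrillar share 14.3% and the basement membrane share 0%, and 3 companion genes were marked. A fold enrichment of at least 3.5 left the same 3 collagens, 2 over the body and 0 over the start, a median fold enrichment of 3.59, 12.9 kb, shares of 25%, 14.3% and 0%, and 3 companion genes. These limits keep fewer peaks by construction, and peaks selected for strength. Counting only peaks over the start gave 3 collagens, shares of 25% in transmembrane, 0% in basement membrane and 0% in fibrillar collagens, and 0 companion genes. Taking the widest peak of each gene gave a median of 2.52 kb, and taking the highest gave 3.22-fold. A reach of 20 kb gave 20 collagens, 57.1% of fibrillar collagens (4 of 7), 12.5% of cartilage collagens (Col9a3) and 17 companion genes. No share of all protein-coding genes is given for this reach, for the fold limit, or for body and start peaks under the q-value limits. Those counts therefore cannot be read as high or low for collagens. With classes by structure alone, 18.2% of fibrillar collagens (2 of 11) were marked. The cartilage share stayed at 0% under the other 8 alternatives. All of these except the placement within 5 kb of the RefSeq gene only remove peaks. A share of 0% could not change under them, so they say nothing on how firm it is. No peak had a pileup under 9.86 fragments, and what part depth has in that was not tested.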

Other observations

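Non-coding genes lay at several of the collagen peaks. The upstream peak of Col1a1 overlapped the long non-coding RNA gene Gm46293, and the 0.294 kb peak inside Col13a1 overlapped Gm30121. Their part in the mark was not tested.

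Besides Col15a1 and Col9a3, the unmarked collagens with a peak within 20 kb were Col1a2 (17.2 kb), Col20a1 (18.2 kb, a peak joined to Chrna4) and Col5a3 (19.9 kb). The peak near Col5a3 was 7.59 kb wide, at 3.28-fold over input (q-value 0.019), and it was joined to no gene. The nearest peak to Col12a1, 78.4 kb away, stood at 3.70-fold over input (q-value 0.00542).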
